A study of Mus musculus with 2 samples.

Results

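The genes described here are 9 members of the interleukin-1 (IL-1) system and of the Nlrp3 inflammasome: the ligand genes Il1a, Il1b and Il18, the antagonist gene Il1rn, the decoy receptor gene Il1r2, the co-receptor gene Il1rap, and the inflammasome genes Nlrp3, Casp1 and Pycard. They were taken by symbol from the gene list of the deposited matrices, where all 9 were found among 31053 genes. Bone marrow of 129Sv mice was cultured with 50 ng/ml of macrophage colony-stimulating factor, which turns marrow cells into macrophages, and 10% fetal bovine serum. On day 7 the cultures received 1 µg/ml of Tamm-Horsfall protein (THP or uromodulin, which the kidney makes) or the vehicle, 5% dextrose, for 18 h. The THP used was a truncated form that does not polymerize. Single-cell RNA was then counted in 1 library of each kind, so no difference below has a replicate check, no test was possible, and treatment cannot be told apart from culture dish or library. How many mice or dishes stand behind a library was not stated in the labels.

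IL-1α and IL-1β bind the same receptor, which signals only once a co-receptor encoded by Il1rap joins it. The product of Il1rn occupies that receptor without signalling, and the decoy receptor encoded by Il1r2 binds ligand without passing on a signal. IL-1β and IL-18 are made as inactive precursors, which caspase-1 cuts after an inflammasome has formed from a sensor such as Nlrp3 and the adaptor ASC, the product of Pycard. In macrophages, inflammatory stimuli are known to raise Il1b and Nlrp3 transcripts before any inflammasome assembles, so transcript counts describe this first step and not the release of cytokine.

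Kept cells numbered 12123 with THP and 10978 with vehicle, with medians of 16113 and 17223 unique molecular identifiers (UMIs, each counting 1 captured RNA molecule) per cell. Of the cell barcodes, 42 occurred in both libraries. Cells were sorted in the data into gates by the summed UMIs of marker genes per 10000 UMIs of the cell. The macrophage gate held 5516 THP and 3677 vehicle cells, 45.5% and 33.5% of kept cells, and all 11 macrophage markers reached 10 CPM (UMIs of the gene per 1000000 UMIs of the gate) in it in both libraries. The neutrophil gate held 2336 and 2886 cells, the monocyte gate 454 and 702, and the myeloid progenitor gate 1329 and 1734. A gene was called higher or lower in the THP library when its CPM + 1 differed at least 2-fold and either library had 10 CPM or more. Intervals in brackets are exact 95% Poisson or binomial intervals and cover counting error only.

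Il1b was the member that differed most between the libraries, in both main gates. In the macrophage gate it stood at 57.7 CPM (56.5 to 59.0) with THP and 2.55 CPM (2.24 to 2.88) with vehicle, a log2 ratio of 4.05 that ranked 1 of the 7857 genes tested there. The neutrophil gate had 243 CPM (235 to 251) and 61.1 CPM (57.6 to 64.7), a log2 ratio of 1.97 and rank 24 of 7363. Among members, Il1b alone passed the size rule as higher in either gate, 1 of the 6 members tested in the macrophage gate and 1 of the 8 tested in the neutrophil gate, and none passed as lower. Over all genes tested, 0.916% were called higher and 3.13% higher or lower in the macrophage gate, and 1.39% and 6.26% in the neutrophil gate. A count of 1 in 6 or 1 in 8 is too small to set the list apart from those shares. The median log2 ratio of the members was 0.09 in the macrophage gate and 0.32 in the neutrophil gate, beside -0.16 and -0.23 over all genes tested.

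**Figure D1:**
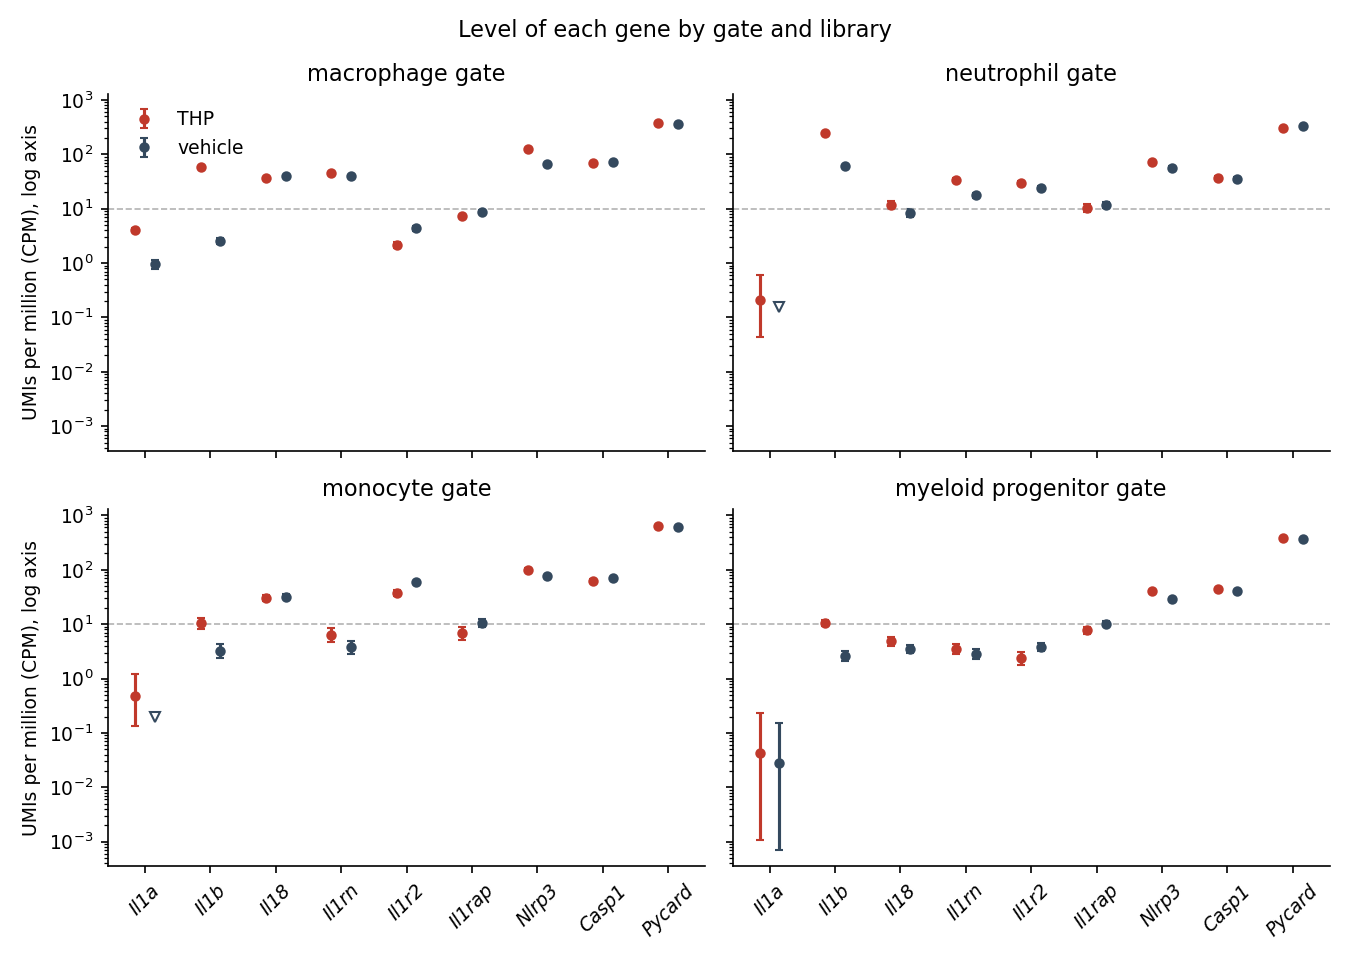
Level (CPM, log axis) of the 9 genes in 4 gates, THP library in red and vehicle library in dark blue, with exact 95% Poisson intervals (often smaller than the point). Open triangles mark genes with 0 UMIs, drawn at the level of 3 UMIs, and the dashed line is 10 CPM. Il1b is higher in the THP library in all 4 gates, and its vehicle level in the macrophage gate, 2.55 CPM, is near those of the monocyte and myeloid progenitor gates.

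Il1b encodes IL-1β, the secreted ligand whose precursor needs caspase-1; the gene lies on the minus strand of chromosome 2 from 129364570 to 129371139 (GRCm38). Its order across gates changed between libraries. In the vehicle library the neutrophil gate was far above the monocyte gate at 3.22 CPM (2.39 to 4.26), the progenitor gate at 2.65 CPM (2.15 to 3.23) and the macrophage gate, and the intervals of those 3 low gates overlapped. In the THP library the macrophage gate stood clear of the monocyte gate at 10.4 CPM (8.31 to 12.8) and the progenitor gate at 10.4 CPM (9.13 to 11.8), though still below the neutrophil gate. Il1b was also called higher in the monocyte and progenitor gates, as the only member of 7 and of 5 tested, where 0.888% and 0.832% of all genes were called higher. S100a8, an abundant neutrophil gene, was in the progenitor gate at 28.5% (THP) and 26.4% (vehicle) of its neutrophil-gate CPM. Neutrophil-gate Il1b at those proportions would give 69.1 and 16.1 CPM, above the progenitor-gate levels measured. In the monocyte gate the proportions were 0.755% and 0.913%, which would give 1.83 and 0.558 CPM, below the levels measured. The part of neutrophil RNA in these differences was not tested. The source of Il1b RNA also differed between the libraries. The macrophage gate gave 12.8% of the vehicle library's 1989 Il1b UMIs and 53.1% of the THP library's 15129, while the neutrophil gate gave 58.9% and 22.9%. Of all UMIs, the macrophage gate held 48.0% with vehicle and 61.8% with THP, and the neutrophil gate 9.24% and 6.35%. Cells in no gate gave 11.5% of vehicle and 13.7% of THP Il1b UMIs, and cells meeting more than 1 gate 9.15% and 8.04%.

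The Il1b transcripts sat in a minority of macrophage-gate cells. Thinned to 2000 UMIs per cell, 8.02% (7.31 to 8.77) of THP macrophage-gate cells held an Il1b UMI, against 0.465% (0.271 to 0.743) of vehicle cells. At full depth the shares were 27.2% and 2.37%. At 1000 UMIs per cell, which leaves out no kept cell, they were 4.77% and 0.299%, beside 0.752% and 0.231% in the myeloid progenitor gate. B cells, which should lack the transcript, had an Il1b UMI in 1 of 78 THP cells and 0 of 38 vehicle cells at that depth. Median UMIs per cell were 21270 and 24009 in the macrophage gate, 16026 and 19695 in the progenitor gate, and 3932 and 5755 in the B cell gate. The macrophage and progenitor intervals did not overlap with THP, at 4.22 to 5.36% and 0.361 to 1.38%, and overlapped with vehicle, at 0.149 to 0.535% and 0.063 to 0.590%.

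Within the vehicle macrophage gate, 8 of the 3677 cells held 50% of the 254 Il1b UMIs, and 1 cell held 41 of them. Within the THP macrophage gate, 178 of 5516 cells (3.23%) held 50% of 8026 Il1b UMIs, with at most 84 in a cell. Without the richest cell of each library the log2 ratio was 4.21. Neutrophil RNA carried by droplets was gauged with S100a8, which in the macrophage gate was at 0.279% (THP) and 0.428% (vehicle) of its neutrophil-gate CPM. S100a8 is also a marker of the neutrophil score, which had to be under 50 in macrophage-gate cells, so the gate itself limits it. Neutrophil-gate Il1b at the same proportions would give 0.677 and 0.261 CPM, below the 57.7 and 2.55 CPM measured. That gauge takes the whole neutrophil gate, with 3467 Il1b and 910388 S100a8 UMIs (THP) and 1171 and 1103069 (vehicle). Its mature Retnlg-high cells, described below, held 1245 Il1b and 61781 S100a8 UMIs (THP) and 471 and 71107 (vehicle). RNA from those cells would bring more Il1b per S100a8 UMI, and its part in the vehicle value was not tested.

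Macrophage-gate cells were split by complement C1q genes, markers of mature tissue-type macrophages, at 10 UMIs of C1qa, C1qb and C1qc per 10000. Il1b was called higher in both portions, as 1.02% of all genes were in C1q-low cells. It stood at 97.0 CPM (94.3 to 99.8) and 5.20 CPM (4.43 to 6.06) in C1q-high cells, and at 36.4 CPM (35.1 to 37.6) and 1.33 CPM (1.07 to 1.64) in C1q-low cells. The CPM ratios were 18.7 (16.0 to 21.9) and 27.3 (22.2 to 34.0), and the level was higher in C1q-high cells of either library.

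Il1a encodes IL-1α, the ligand that is active without caspase-1 and is often kept inside the cell; it lies near Il1b on the minus strand of chromosome 2, from 129299610 to 129309972. In the macrophage gate it reached 4.03 CPM (3.70 to 4.38) with THP and 0.943 CPM (0.762 to 1.15) with vehicle, under the 10 CPM minimum, with a log2 ratio of 1.37. The 2 intervals did not overlap. Il1a followed the C1q split more sharply than Il1b did: 509 of the 560 THP UMIs and 87 of the 94 vehicle UMIs of the macrophage gate came from C1q-high cells, which were 1966 of 5516 and 1260 of 3677 cells. For Il1b it was 4750 of 8026 THP and 163 of 254 vehicle UMIs.

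In C1q-high cells Il1a stood at 10.4 CPM (9.51 to 11.3) and 2.78 CPM (2.22 to 3.42) and was called higher, with a log2 ratio of 1.59. With Il1b and Nlrp3 it made 3 of the 7 members tested in C1q-high cells that were called higher, where 0.99% of all genes were. Il1a was rare in the other 3 main gates. The neutrophil gate held 3 THP UMIs and 0 vehicle UMIs, the monocyte gate 4 and 0, and the progenitor gate 1 and 1. A count of 0 in the neutrophil gate allows up to 0.156 CPM by the limit of 3 UMIs, and 0.192 CPM by the exact Poisson bound. Cells meeting more than 1 gate held 37 THP and 7 vehicle UMIs, cells in no gate 24 and 4, and the stromal gate 20 and 0, with all 20 in 1 cell. The macrophage gate gave 86.3% of all THP and 87.9% of all vehicle Il1a UMIs, so the cell source of Il1a did not move as that of Il1b did.

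Il1a and Il1b tended to be found in the same THP macrophages. Thinned to 2000 UMIs, Il1a was seen in 4.78% (2.99 to 7.22) of the 439 Il1b-positive cells and in 0.536% (0.354 to 0.779) of the Il1b-negative cells. At full depth the shares were 14.6% and 1.87%. The same held within C1q-high cells, at 8.47% (5.32 to 12.7) and 1.41% (0.904 to 2.09). The cells come from 1 library and are no replicates.

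Il18, the gene of the other caspase-1 substrate, differed little in the macrophage gate. It was there at 36.4 CPM (35.4 to 37.4) and 39.7 CPM (38.5 to 41.0), a log2 ratio of -0.12 that turned to 0.11 with TMM and 0.14 with RLE scaling. Its neutrophil-gate level was 11.7 CPM (9.98 to 13.6) and 8.34 CPM (7.10 to 9.74). That log2 ratio was 0.44, inside the 2-fold limit, with intervals that did not overlap. Per Il1b UMI, the macrophage gate held 0.630 Il18 UMIs with THP and 15.6 with vehicle.

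Such scaling matters for the small ratios. The TMM and RLE factors added 0.24 and 0.26 to each log2 ratio in the macrophage gate and 0.25 and 0.26 in the neutrophil gate, which brings the median of all genes close to 0. Casp1 in the macrophage gate and Il1rap and Pycard in the neutrophil gate also changed sign with both factors. Il1rap in the macrophage gate changed sign with length correction, and Casp1 in the neutrophil gate with length correction or thinning, so no direction is stated for any of these. A ratio of 2 genes in 1 library does not depend on the factor. Log2 ratios also fell with transcript length, with a Spearman rho of -0.57 in either gate. The longest transcript has 1356 bases for Il1b and 2554 for Il1rn. The part of length in the ratio of these genes was not tested.

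**Figure D2:**
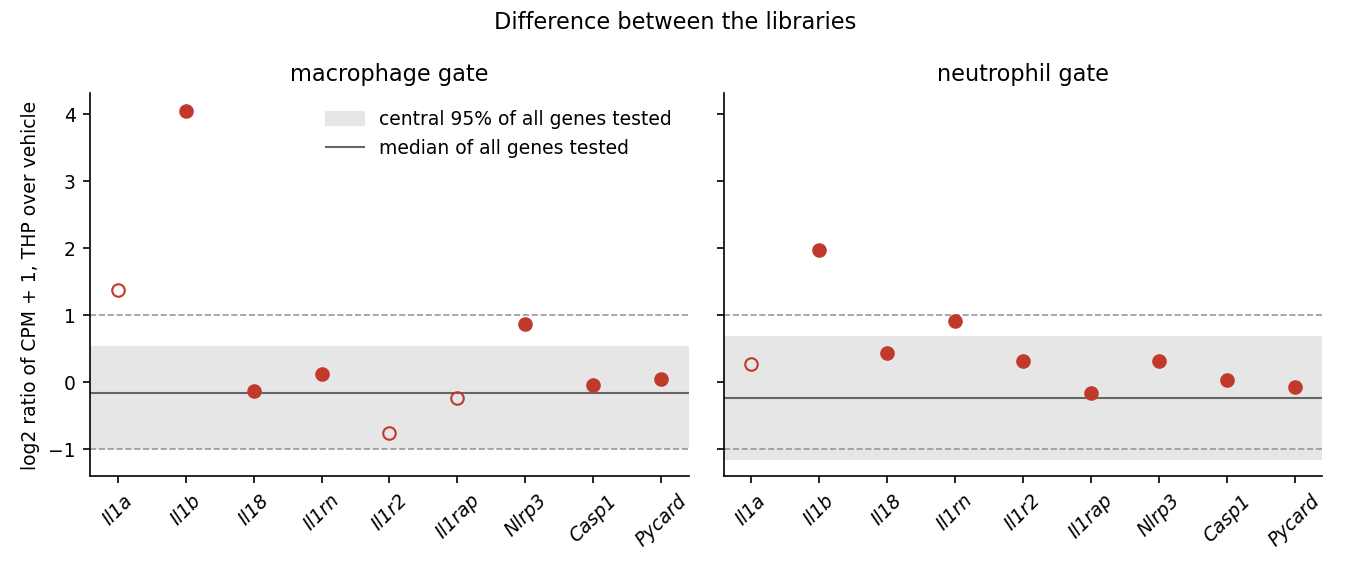
log2 ratio of CPM + 1, THP over vehicle, for the 9 genes in the macrophage and neutrophil gates. Filled points reached 10 CPM in at least 1 library, the grey band and line are the central 95% and the median of all genes tested in the gate, and dashed lines mark the 2-fold limits. Il1b lies at 4.05 and 1.97, Nlrp3 at 0.87 in the macrophage gate and Il1rn at 0.91 in the neutrophil gate lie above the band but inside the limits.

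Il1rn encodes the IL-1 receptor antagonist and lies on the plus strand of chromosome 2 from 24336853 to 24351494. In the macrophage gate it was at 44.5 CPM (43.4 to 45.6) with THP and 40.5 CPM (39.3 to 41.8) with vehicle, a log2 ratio of 0.13, where the CPM of Il1b differed 22.7-fold (19.99 to 25.8). Il1rn in the neutrophil gate was at 34.2 CPM (31.2 to 37.3) and 17.7 CPM (15.8 to 19.7), a log2 ratio of 0.91 that fell short of the 2-fold limit. One THP neutrophil-gate cell of 46587 UMIs held 64 of the 488 Il1rn UMIs and no Il1b UMI. Without the richest cell of each library the neutrophil-gate levels were 29.8 and 17.4 CPM and the log2 ratio was 0.74. With TMM and RLE scaling the ratio was 1.15 and 1.17, past the limit.

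Set against the ligand, the antagonist was lower in the THP library. The macrophage gate held 0.770 Il1rn UMIs per Il1b UMI (0.745 to 0.796) with THP and 15.9 (14.0 to 18.1) with vehicle, so the THP ratio was 0.048 of the vehicle ratio (0.042 to 0.055). In the neutrophil gate it was 0.141 (0.128 to 0.155) and 0.289 (0.256 to 0.327), or 0.486 of the vehicle ratio (0.416 to 0.569). The intervals did not overlap in either gate. Il1b was the term that differed, while Il1rn itself was level or higher with THP. The same proportion was 0.074 in C1q-high cells and 0.038 in C1q-low cells.

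The promoters of Il1b, Il1a and Il1rn are shown because 2 ligand genes stood higher in THP macrophages while the antagonist gene hardly differed. They are the 250 bases before a RefSeq start site (GRCm38.p6), 5′ to 3′ on the gene's strand; Il1rn has 3 listed windows, of which the third overlaps the second, and the first and second are shown. Capitals mark matches, on either strand, to TGANTCA (AP-1) or TTNNGNAA (C/EBP-like), motifs picked after the values were known.
Il1b promoter, chr2:129371140-129371389, minus strand: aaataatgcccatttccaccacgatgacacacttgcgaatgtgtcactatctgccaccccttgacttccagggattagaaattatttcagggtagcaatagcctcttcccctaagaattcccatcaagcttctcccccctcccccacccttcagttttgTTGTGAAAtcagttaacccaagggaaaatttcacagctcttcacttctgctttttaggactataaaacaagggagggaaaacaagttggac
Il1a promoter, chr2:129309973-129310222, minus strand: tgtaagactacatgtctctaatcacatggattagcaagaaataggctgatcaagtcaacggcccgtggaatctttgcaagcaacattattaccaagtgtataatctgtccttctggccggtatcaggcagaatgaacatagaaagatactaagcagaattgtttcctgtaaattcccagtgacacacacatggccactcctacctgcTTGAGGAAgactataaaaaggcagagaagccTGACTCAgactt
Il1rn promoter, first window, chr2:24336610-24336859, plus strand: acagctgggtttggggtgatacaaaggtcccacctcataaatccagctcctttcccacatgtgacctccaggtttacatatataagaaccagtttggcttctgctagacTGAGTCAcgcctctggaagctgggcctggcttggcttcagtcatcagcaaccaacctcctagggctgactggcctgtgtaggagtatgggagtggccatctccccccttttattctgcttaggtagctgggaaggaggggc
Il1rn promoter, second window, chr2:24345041-24345290, plus strand: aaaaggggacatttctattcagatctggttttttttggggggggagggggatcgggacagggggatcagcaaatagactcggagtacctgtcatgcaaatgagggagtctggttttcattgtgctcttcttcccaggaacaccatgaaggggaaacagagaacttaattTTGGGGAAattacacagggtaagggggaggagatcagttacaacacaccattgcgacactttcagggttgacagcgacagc
The Il1b stretch holds a C/EBP-like match starting 91 bases before the start site. The Il1a stretch holds a C/EBP-like match 43 bases and an AP-1 match 12 bases before it. The first Il1rn stretch holds an AP-1 match 141 bases before its start site, and the second a C/EBP-like match 81 bases before its own. Over 32851 RefSeq promoter windows of 300 bases, 40.7% held the C/EBP-like and 7.81% the AP-1 motif. A match only says that these letters are present.

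Il1r2, the decoy receptor gene, stood higher in the monocyte and neutrophil gates than in the macrophage gate. In the monocyte gate it was at 37.5 CPM (33.4 to 41.9) with THP and 59.3 CPM (55.5 to 63.3) with vehicle, in the neutrophil gate at 30.0 CPM (27.3 to 33.0) and 23.8 CPM (21.6 to 26.1), and in the macrophage gate at 2.15 CPM (1.91 to 2.41) and 4.34 CPM (3.95 to 4.77). None of these differences reached 2-fold in CPM + 1, with log2 ratios of -0.65, 0.32 and -0.76. Cells in no gate gave 35.8% of THP and 37.1% of vehicle Il1r2 UMIs, more than any gate, with 12.8% and 13.7% of all UMIs. Monocyte markers moved with Il1r2 in the macrophage gate: all 5 were at 10 CPM or more in both libraries, and their sum was 215 CPM in the THP and 334 CPM in the vehicle library, and their part in the Il1r2 difference was not tested. Per Il1b UMI the macrophage gate held 0.037 Il1r2 UMIs (0.033 to 0.042) in the THP and 1.70 (1.46 to 2.00) in the vehicle library, and the neutrophil gate 0.124 (0.112 to 0.137) and 0.389 (0.349 to 0.434).

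Il1rap, the co-receptor gene, was low and differed by less than the size rule. The macrophage gate was at 7.32 CPM (6.87 to 7.78) and 8.82 CPM (8.25 to 9.42), and the neutrophil gate at 10.4 CPM (8.76 to 12.2) and 11.7 CPM (10.2 to 13.3), with overlapping intervals in the latter. The signalling receptor gene Il1r1 was at 0.331 CPM and 0.462 CPM in the macrophage gate, from 46 UMIs in each library.

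**Figure D3:**
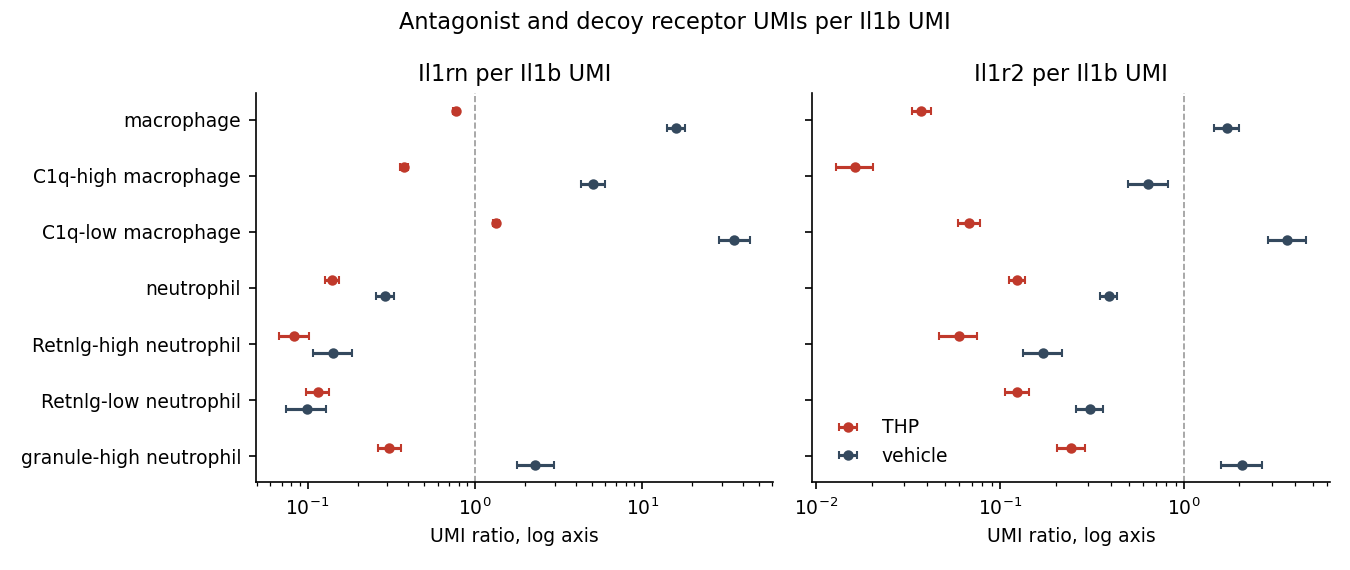
Il1rn UMIs (left) and Il1r2 UMIs (right) per Il1b UMI on log axes, by gate and portion of a gate, THP library in red and vehicle library in dark blue, with exact 95% intervals. The THP ratio is below the vehicle ratio everywhere but for Il1rn in Retnlg-low neutrophil-gate cells, where the intervals overlap.

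Among the inflammasome genes, Nlrp3, the sensor, had the largest ratio. In the macrophage gate it was at 123 CPM (122 to 125) with THP and 66.9 CPM (65.3 to 68.6) with vehicle, a log2 ratio of 0.87 and rank 96 of 7857, short of the 2-fold limit. With TMM and RLE scaling the ratio was 1.11 and 1.13, and with a correction for transcript length 1.13, all past it. In C1q-high cells alone Nlrp3 was at 130 CPM (127 to 133) and 64.4 CPM (61.7 to 67.3) and was called higher. Unlike Il1b, Nlrp3 was spread over many cells: 972 THP and 603 vehicle macrophage-gate cells (17.6% and 16.4%) held 50% of its UMIs. The thinned share of cells with an Nlrp3 UMI was 20.7% (19.7 to 21.8) and 12.6% (11.5 to 13.7), and 79.5% and 69.3% at full depth.

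Nlrp3 in the neutrophil gate was at 71.1 CPM (66.8 to 75.6) and 56.6 CPM (53.3 to 60.0), a log2 ratio of 0.32. In the monocyte gate it was at 101 CPM (93.8 to 108) and 75.7 CPM (71.3 to 80.2), and in the progenitor gate at 40.5 CPM (38.0 to 43.2) and 29.0 CPM (27.3 to 30.8). The 4 gates thus had higher Nlrp3 in the THP library with intervals that did not overlap, and none reached 2-fold.

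Casp1, which encodes the protease, and Pycard, which encodes the adaptor, differed by little. Casp1 was at 69.2 CPM (67.8 to 70.5) and 71.3 CPM (69.7 to 73.0) in the macrophage gate and at 36.4 CPM (33.3 to 39.7) and 35.6 CPM (32.9 to 38.3) in the neutrophil gate. Pycard was at 379 CPM (375 to 382) and 365 CPM (361 to 369) in the macrophage gate and at 311 CPM (302 to 321) and 327 CPM (319 to 336) in the neutrophil gate. Set against Nlrp3, both were lower with THP in the macrophage gate. Casp1 UMIs per Nlrp3 UMI were 0.561 (0.547 to 0.575) and 1.07 (1.03 to 1.10), and Pycard UMIs per Nlrp3 UMI were 3.07 (3.02 to 3.12) and 5.45 (5.31 to 5.60).

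The neutrophil gate was mixed, and the members followed its portions. It was divided into granule-high cells (at least 50 UMIs of Camp, Ltf and Ngp, granule genes of immature neutrophils, per 10000) and the rest. The rest was divided by Retnlg, a gene of mature neutrophils, at 10 UMIs per 10000. Granule-high cells were not divided by Retnlg, which stood in them at 2309 CPM with THP and 2510 CPM with vehicle. In Retnlg-low cells it was at 27.4 and 20.3 CPM. The part of more mature cells in the granule-high values was not tested. Retnlg-high cells numbered 272 with THP and 448 with vehicle, Retnlg-low cells 767 and 738, and granule-high cells 1297 and 1700. Retnlg-high cells were shallow, with medians of 2163 and 1800 UMIs. By markers the Retnlg-low cells were mixed. Their neutrophil markers summed to 120020 CPM with THP and 98336 CPM with vehicle, beside 1191 and 1287 CPM in the monocyte gate. Their monocyte markers summed to 2485 and 2499 CPM, beside 2766 and 3178 CPM in the monocyte gate and 1073 and 1086 CPM in Retnlg-high cells. Ly6g, a neutrophil marker, was at 2.70 and 2.68 CPM in them, beside 127 and 79.3 CPM in Retnlg-high cells. The part of monocyte-like cells in the Retnlg-low values was not tested.

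Il1b was concentrated in the Retnlg-high cells, at 1670 CPM (1579 to 1766) with THP and 455 CPM (415 to 498) with vehicle, a log2 ratio of 1.87. In Retnlg-low cells it was at 301 CPM (286 to 316) and 102 CPM (93.9 to 110). In granule-high cells it was at 79.6 CPM (73.7 to 85.9) and 7.56 CPM (6.09 to 9.27), a log2 ratio of 3.24. Few granule-high cells carried it: 17 of 1297 THP cells held 50% of 666 Il1b UMIs, with at most 52 in a cell. With vehicle, 9 of 1700 cells held 50% of 92. Without the richest cell of each library the log2 ratio there was 3.25. Il1b was called higher in each portion, as 1.5% of all genes were in granule-high cells, and the portion with the lowest vehicle level had the highest ratio. At 1000 UMIs per cell, 66.5% (60.6 to 72.1) of THP and 28.8% (24.6 to 33.2) of vehicle Retnlg-high cells held an Il1b UMI, against 5.78% (4.58 to 7.20) and 0.647% (0.323 to 1.16) of granule-high cells.

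Il1rn in Retnlg-high cells was at 140 CPM (114 to 169) and 64.8 CPM (50.2 to 82.2) and was called higher, with a log2 ratio of 1.10. Il1b and Il1rn were thus 2 of the 8 members tested that were higher in Retnlg-high cells, where 4.19% of all genes were called higher and 22.5% lower. In Retnlg-low cells Il1rn was at 34.6 CPM (29.7 to 40.0) and 10.0 CPM (7.67 to 12.9), and called higher with 1.48% of all genes; without the richest cell of each library it was at 22.4 and 9.38 CPM, a log2 ratio of 1.17. In granule-high cells it was at 24.5 CPM (21.3 to 28.1) and 17.4 CPM (15.1 to 19.9).

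Set against Il1b, Il1rn differed less between the libraries in Retnlg-high than in granule-high cells, with intervals that did not overlap. Il1rn per Il1b UMI in the THP library was 0.587 (0.420 to 0.826) of the vehicle ratio in Retnlg-high cells and 0.134 (0.099 to 0.180) in granule-high cells. In Retnlg-low cells it was 1.17 (0.852 to 1.61), and 0.801 without the cell that held 64 Il1rn UMIs and its vehicle counterpart. The interval of the Retnlg-low cells held 1. Other neutrophil genes also differed in Retnlg-high cells, in both directions. Csf3r was at 241 CPM with THP and 481 CPM with vehicle and Retnlg at 13432 and 19923 CPM, while Ly6g was at 127 and 79.3 CPM and S100a8 at 82886 and 68731 CPM. Their part in the Il1b and Il1rn values was not tested.

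**Figure D4:**
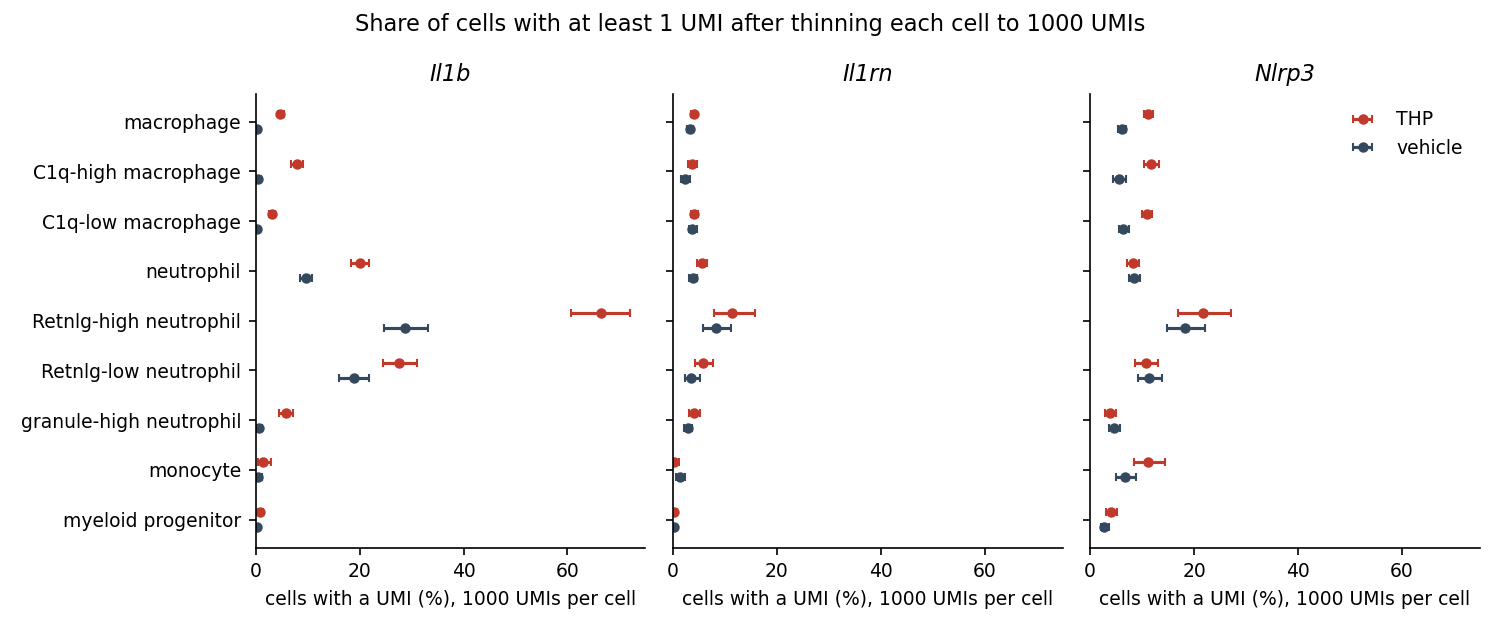
Share of cells (%) with at least 1 UMI of Il1b, Il1rn or Nlrp3 after each cell was thinned to 1000 UMIs, by gate and portion of a gate, with exact 95% binomial intervals, THP library in red and vehicle library in dark blue. Retnlg-high neutrophil-gate cells stand out for Il1b, at 66.5% and 28.8%, while the Il1rn shares of those cells, 11.4% and 8.26%, have overlapping intervals.

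Whether ligand and antagonist occurred in the same cells differed by gate. Among THP macrophage-gate cells thinned to 2000 UMIs, Il1rn was seen in 6.83% (4.66 to 9.61) of Il1b-positive and 7.25% (6.55 to 8.0) of Il1b-negative cells, with overlapping intervals. Among THP neutrophil-gate cells the shares were 18.5% (14.3 to 23.3) and 5.23% (4.22 to 6.41). At full depth they were 44.4% and 39.1% in the macrophage gate and 24.9% and 10.0% in the neutrophil gate. Within Retnlg-high cells the thinned shares, 27.4% (19.5 to 36.6) and 17.8% (8.0 to 32.1), overlapped. Only 158 of the 272 THP Retnlg-high cells were deep enough for this thinning, 113 of them Il1b-positive, so the comparison is small. At full depth their shares were 31.4% and 15.2%. The thinned shares within Retnlg-low cells, 10.4% (5.11 to 18.3) and 3.85% (2.30 to 6.01), also overlapped. Those within granule-high cells, 16.0% (9.22 to 24.95) and 5.30% (4.09 to 6.75), did not.

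Beyond the 9 members, 43 other genes of IL-1 family signalling and inflammasomes were read with the same rule. In the macrophage gate 26 were tested, of which 0 were higher and 3 lower (0.916% of all genes were higher and 2.21% lower), and their median log2 ratio was -0.34. The lower genes were Nlrp1b, another inflammasome sensor, at 1.73 and 12.0 CPM (log2 ratio -2.25); Il1rl1, the IL-33 receptor, at 3.57 and 10.2 CPM (-1.29); and Txnip, a thioredoxin-binding protein linked to Nlrp3, at 153 and 327 CPM (-1.09). In the neutrophil gate 24 were tested, of which 3 were higher and 1 lower (1.39% of all genes were higher and 4.88% lower), with a median of -0.24. Higher were Ninj1, which ruptures membranes in lytic death, at 201 and 71.2 CPM (1.49), Irak3, an inhibitor of IL-1 receptor signalling, at 142 and 64.8 CPM (1.12), and Casp4, the caspase of the non-canonical inflammasome, at 31.4 and 14.6 CPM (1.06). Nlrp12 was lower, at 4.06 and 12.8 CPM (-1.45). Irak3 in the macrophage gate, at 61.1 and 30.1 CPM, lay just under the 2-fold limit. Ninj1 there was at 310 and 168 CPM (0.88) and Casp4 at 19.5 and 10.5 CPM (0.83), also under it. Each fell short by less than the 0.24 (TMM) or 0.26 (RLE) that scaling adds. Txnip passed the limit as lower by less than those amounts, so the counts of 0 higher and 3 lower depend on scaling. No Nlrp, Nlrc, Naip or Aim2 gene of this wider list was called higher in either gate. Some of these, such as Nlrc4 and Nlrp1a in both gates, were under 10 CPM and could not be called. Mefv, also on the list, was in the macrophage gate at 7.13 and 2.75 CPM (log2 ratio 1.12), likewise under the minimum. In the neutrophil gate Mefv was at 10.3 and 9.75 CPM (0.07). Il1f9, another gene of the list, was there at 81.5 and 42.0 CPM (0.94). It fell short of the 2-fold limit by less than the 0.25 (TMM) or 0.26 (RLE) that scaling adds in that gate.

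The genes with profiles most like 3 members were sought over 8 profiles, the 4 main gates in 2 libraries, among 8829 genes. For Il1b they were Fpr1, a formyl peptide receptor, with a Pearson correlation of log2(CPM + 1) of 0.952, then Lst1, Cd82, Vasp and Ccrl2 down to 0.927. For Il1rn they were Skil (0.976), Kcnj2, Cd55, Gng5 and Ptafr (0.951), and for Il1r2 Rarg (0.983), Gsdmd, Spaca9, Csf1 and Ifitm6 (0.95). These profiles share gates and libraries, so the correlations are descriptions over few points.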

How the data were processed

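Single-cell RNA was counted in 1 THP and 1 vehicle library. The authors deposited unnormalized UMI counts by gene and barcode, from software version 3.1.0 (matrix format 2, per the file headers); the submitters' processing notes name Cell Ranger, bcl2fastq, STAR and mm10. Barcodes with at least 500 genes, 1000 UMIs and at most 10% mitochondrial UMIs were kept. Gates used summed marker UMIs per 10000, with minimums of 15 (macrophage, monocyte), 200 (neutrophil) and 50 (myeloid progenitor, B cell). Every gate but the neutrophil and progenitor gates also needed a neutrophil score under 50. Cells meeting the macrophage minimum and the neutrophil or progenitor minimum counted as more than 1 gate and were left out of each. The same held for cells of a rarer gate, such as B cells, that met any of those minimums or another rarer gate. Cells meeting the progenitor and neutrophil minimums stayed in the progenitor gate. Meeting the monocyte minimum removed no cell from the macrophage, neutrophil or progenitor gate. No doublet caller was run. UMIs were summed per gate and library, scaled to CPM by the gate total, and compared as log2(CPM + 1). edgeR 4.0.16 served only for TMM and RLE factors, and python 3.11.15, numpy 2.4.6 and scipy 1.17.1 for the rest. Genes named were the 9 members, listed pathway genes past the size rule, and the 5 genes nearest to Il1b, Il1rn and Il1r2. Some other listed pathway genes, near the 2-fold limit or under the 10 CPM minimum, were also named. The log2 ratio with its size rule and the length correction were tried on simulated counts. The gates, the thinning and the UMI ratios between genes were not. Coordinates are from GENCODE M21 (GRCm38) and promoters from RefSeq (GRCm38.p6), which matched all 9 members. The members, lists and markers were chosen with earlier results of these data known; the C1q, granule and Retnlg divisions, the values without single cells and the 1000-UMI thinning were chosen after seeing the data.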

Additional observations from a re-analysis of the deposited data

Results flagged for a closer look

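Il1r2 differed in opposite directions in the 2 main gates, with a log2 ratio of -0.76 in the macrophage gate and 0.32 in the neutrophil gate, and kept both signs with TMM and RLE scaling. With 1 library per group the difference between gates was not tested.

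Barcodes left out by the cell filter, which no comparison above uses, carried Il1b at 298.6 CPM (276.7 to 321.8) in the THP library, over 1070 barcodes, and 65.7 CPM (53.1 to 80.4) in the vehicle library, over 606. Nlrp3 in the same barcodes was at 152.8 CPM (137.2 to 169.6) and 56.6 CPM (44.99 to 70.4).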

How the results depend on the processing

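Il1b stayed higher in the THP library under each alternative run, with log2 ratios from 3.91 to 4.45 in the macrophage gate and from 1.46 to 3.24 in the neutrophil gate. The number of members past the size rule in the macrophage gate, 1, became 2 with TMM scaling, RLE scaling, length correction, a 1 CPM minimum, a 1.5-fold limit or a halved gate threshold, and 3 in C1q-high cells. In the neutrophil gate it became 2 with TMM scaling, RLE scaling, length correction or a 1.5-fold limit and in Retnlg-high or Retnlg-low cells. The pathway count in the macrophage gate, 3, became 6 with a 1 CPM minimum, 11 with a 1.5-fold limit and 5 with a pseudocount of 0.1. In the neutrophil gate, 4 became 11 with a 1.5-fold limit and 9 of 25 tested in Retnlg-high cells, where 26.7% of all genes were called. The Il1rn to Il1b ratio of THP over vehicle, 0.048 in the macrophage gate, was 0.061 without the top 5% of cells by UMIs, 0.060 with a halved threshold, 0.074 in C1q-high and 0.038 in C1q-low cells. In the neutrophil gate, 0.486 became 0.601 with equal weight per cell, 0.232 after thinning to 2000 UMIs, which leaves out 351 THP and 549 vehicle cells, 0.587 in Retnlg-high, 0.134 in granule-high and, reversed, 1.17 (0.852 to 1.61) in Retnlg-low cells, an interval that holds 1; without the richest Il1rn cell of each library the last was 0.801. Apart from the smaller sets of cells, the cause of these shifts was not tested. No paired analysis was possible because each group has 1 library. Log2 ratios fell with transcript length, with Spearman rho of -0.57 across genes in either gate, which are no replicates. Depth limits Il1a outside the macrophage gate and Il1b in vehicle macrophages, where few cells hold the UMIs.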

Other observations

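The stromal gate, which the comparisons above leave out for its few cells, held Il1rn at 128 CPM (103 to 157) from 90 UMIs in 33 THP cells and at 9.50 CPM (5.43 to 15.4) from 16 UMIs in 42 vehicle cells. Its median UMIs per cell were 18419 and 39680. Il1a had 20 UMIs there with THP, all in 1 cell, and 0 with vehicle.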
